A study of Arabidopsis thaliana with 12 samples.

Results

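The genes described are 10 homeodomain-leucine zipper (HD-Zip) class I transcription factors of Arabidopsis thaliana: ATHB7 (AT2G46680), ATHB12 (AT3G61890), HB21 (AT2G18550), HB40 (AT4G36740), HB53 (AT5G66700), ATHB6 (AT2G22430), ATHB1 (AT3G01470), ATHB5 (AT5G65310), ATHB16 (AT4G40060) and HB13 (AT1G69780). They were taken by gene identifier, 10 of the 32833 genes in each of the authors' deposited tables. The rule uses no measured value, but the genes were chosen with earlier results of these data known. Messenger RNA was sequenced from whole 4-day-old seedlings of 2 natural accessions, Col-0 and Kn-0, held for 3 h on control medium (mock) or on medium with 5 µM abscisic acid (ABA). Each of the 4 groups, Col-0 mock, Col-0 ABA, Kn-0 mock and Kn-0 ABA, had 3 libraries, which the design text gives as biological replicates. All seedlings had been grown under continuous light, and the labels name no altered gene.

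HD-Zip proteins are found in plants and join a DNA-binding homeodomain to a leucine zipper, so that they bind DNA as dimers. Class I proteins recognise a short palindrome, CAATNATTG, and many of their genes respond to light, water deficit or ABA, the hormone that closes stomata and arrests seedling growth under drought. ABA binds PYR/PYL receptors, which then inhibit clade A protein phosphatases (PP2Cs) such as ABI1, and the released SnRK2 kinases activate ABF and ABI5 factors at ACGTG-containing promoter elements.

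Of the genes, 6 fall into pairs of close relatives, ATHB7 with ATHB12, ATHB6 with ATHB16, and HB21 with HB40, and their promoters are shown because those pairs share long runs of sequence. Each window is RefSeq sequence of build TAIR10.1, the Col-0 reference, on the gene's strand from 250 bases before to 50 bases after the annotated start. Capitals mark the longest run that a pair has in common. Numbering is from the start, with the first base of the gene as 1.
ATHB7: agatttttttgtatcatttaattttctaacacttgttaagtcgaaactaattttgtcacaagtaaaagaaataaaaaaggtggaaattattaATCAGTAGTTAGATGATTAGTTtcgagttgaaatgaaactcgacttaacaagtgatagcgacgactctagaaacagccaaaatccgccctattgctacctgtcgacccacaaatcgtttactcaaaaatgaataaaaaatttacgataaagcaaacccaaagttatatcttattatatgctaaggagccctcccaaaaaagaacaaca
ATHB12: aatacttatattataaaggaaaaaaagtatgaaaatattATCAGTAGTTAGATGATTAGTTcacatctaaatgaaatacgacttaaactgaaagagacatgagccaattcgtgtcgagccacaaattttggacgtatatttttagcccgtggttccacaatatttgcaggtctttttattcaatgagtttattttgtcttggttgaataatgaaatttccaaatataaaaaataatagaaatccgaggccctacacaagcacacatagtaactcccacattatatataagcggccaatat
ATHB6: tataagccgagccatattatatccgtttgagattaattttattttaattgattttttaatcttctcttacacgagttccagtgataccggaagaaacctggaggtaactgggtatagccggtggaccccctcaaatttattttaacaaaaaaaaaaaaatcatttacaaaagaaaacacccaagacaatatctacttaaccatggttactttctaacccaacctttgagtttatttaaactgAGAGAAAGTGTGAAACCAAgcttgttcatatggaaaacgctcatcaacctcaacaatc
ATHB16: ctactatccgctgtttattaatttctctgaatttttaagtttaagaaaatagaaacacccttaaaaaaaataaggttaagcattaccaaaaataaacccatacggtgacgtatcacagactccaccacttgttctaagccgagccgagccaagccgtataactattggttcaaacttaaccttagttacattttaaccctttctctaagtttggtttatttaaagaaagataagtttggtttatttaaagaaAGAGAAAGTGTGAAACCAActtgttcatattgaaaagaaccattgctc
HB21: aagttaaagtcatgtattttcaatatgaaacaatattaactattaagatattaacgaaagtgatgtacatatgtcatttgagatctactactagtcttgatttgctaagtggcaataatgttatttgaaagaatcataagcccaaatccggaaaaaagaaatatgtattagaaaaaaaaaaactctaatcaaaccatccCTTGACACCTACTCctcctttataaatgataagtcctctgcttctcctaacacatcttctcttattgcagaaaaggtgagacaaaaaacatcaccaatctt
HB40: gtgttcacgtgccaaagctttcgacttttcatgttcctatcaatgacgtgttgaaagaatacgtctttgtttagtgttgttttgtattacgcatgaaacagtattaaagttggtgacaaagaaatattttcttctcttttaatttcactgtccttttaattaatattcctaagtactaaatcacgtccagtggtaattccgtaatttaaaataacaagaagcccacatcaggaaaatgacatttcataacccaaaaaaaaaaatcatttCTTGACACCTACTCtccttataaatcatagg
The windows lie on the minus strand at chr2:19166918-19167217 (ATHB7), chr3:22915344-22915643 (ATHB12), chr2:9527796-9528095 (ATHB6), chr4:18573035-18573334 (ATHB16), chr2:8051267-8051566 (HB21) and chr4:17316392-17316691 (HB40).

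ATHB7 and ATHB12 shared a run of 22 bases, ATCAGTAGTTAGATGATTAGTT, at -158 to -137 in ATHB7 and at -211 to -190 in ATHB12. ATHB6 and ATHB16 shared 19 bases across or just after the start. HB21 and HB40 shared 14 bases, at -51 to -38 in HB21 but at 20 to 33 in HB40, after its annotated start. Over all 45 pairs of the 10 promoters the median of the longest shared run was 9 bases. Of the 42 other pairs, 1 reached 14 bases: ATHB6 and HB40 shared 17 bases that are mostly a run of A. Similarity of sequence is a description of the reference and says nothing of which factor binds there.

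ACGTG, searched on both strands, was found in the windows of HB40 and ATHB5 and in none of the other 8, against 26.7% of 27443 promoters of protein-coding genes. In HB40 it occurred at -245 to -240, where CACGTG reads the same on both strands and was counted on each, at -205 to -201 and at -69 to -65. ATHB5 held 1 copy at -186 to -182 on the opposite strand. The longer forms ACGTGGC and ACGTGTC, which contain ACGTG, were in 4.08% and 4.33% of all promoters, and in no window of the 10 genes. CAATNATTG, the class I site, was in 1.07% of all promoters and in none of the 10. TATAAA was in 6 of the 10 windows, those of ATHB12, ATHB1, HB13, HB21, HB40 and HB53, against 52.1% of all promoters. In HB40 and HB53 it lay only after the annotated start, at 38 to 43 and at 16 to 21.

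Gene levels came as the authors' means over the 6 libraries of an accession, and junction reads were the only values per library. Junction reads, taken from 1 splicing event per gene, summed to between 14252343 and 15551027 per library. All 6 ABA reference genes rose in both accessions: for LTI65 (RD29B), a late embryogenesis protein gene of the textbook ABA response, the authors' deposited tables give log2 fold changes of 6.73 ± 0.247 (SE) for Col-0 and 6.96 ± 0.0705 for Kn-0. RAB18, a dehydrin gene, stood there at 4.70 and 3.57, and ABI5 at 2.94 and 2.40. All 6 root and 5 shoot markers were read. Of the root markers, 1 rose and 2 fell in each accession, and PLT1, a root stem cell gene, fell most, at -1.20 and -0.93 in the authors' deposited tables. EXPA7, a root hair expansin gene, rose there by 0.25 and 0.23, and SHR, a radial patterning gene, was at -0.21 and -0.11 and passed in Col-0. Of the shoot markers, 1 fell in Col-0, and 1 rose and 2 fell in Kn-0. Across all tested genes, 38.3% in Col-0 and 44.4% in Kn-0 passed an adjusted p of 0.05 in either direction. KNAT1, a shoot meristem gene, fell in both (-0.32 and -0.22 in the authors' deposited tables), while FMA, a guard cell gene (-0.09 and -0.18), and CAB2, a chlorophyll-binding protein gene (0.12 and 0.10), passed in Kn-0 alone. In whole seedlings fewer cells of a type and less RNA per cell cannot be told apart, and the part of the marker changes in the results below was not tested.

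In Col-0, 6 of the 10 genes rose under ABA and 1 fell, at the authors' adjusted p under 0.05, against 38.3% of the 23687 genes tested in either direction, 19.8% higher and 18.4% lower. In Kn-0, 9 of the 10 were tested, and 5 rose and 3 fell, against 44.4% of 23710 genes, 22.9% higher and 21.5% lower. The median log2 fold change of the tested genes of the group was 1.003 in Col-0 against 0.82 in Kn-0, and that of all tested genes was close to 0 in both. With a rise of at least 1 on the log2 scale as well, 5 of the 10 passed for Col-0 and 4 of 9 for Kn-0, against 5.37% and 4.91% of genes. The genes thus split into strongly raised, moderately raised, and lowered or unmoved ones, as the plot of fold changes shows.

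**Figure D1:**
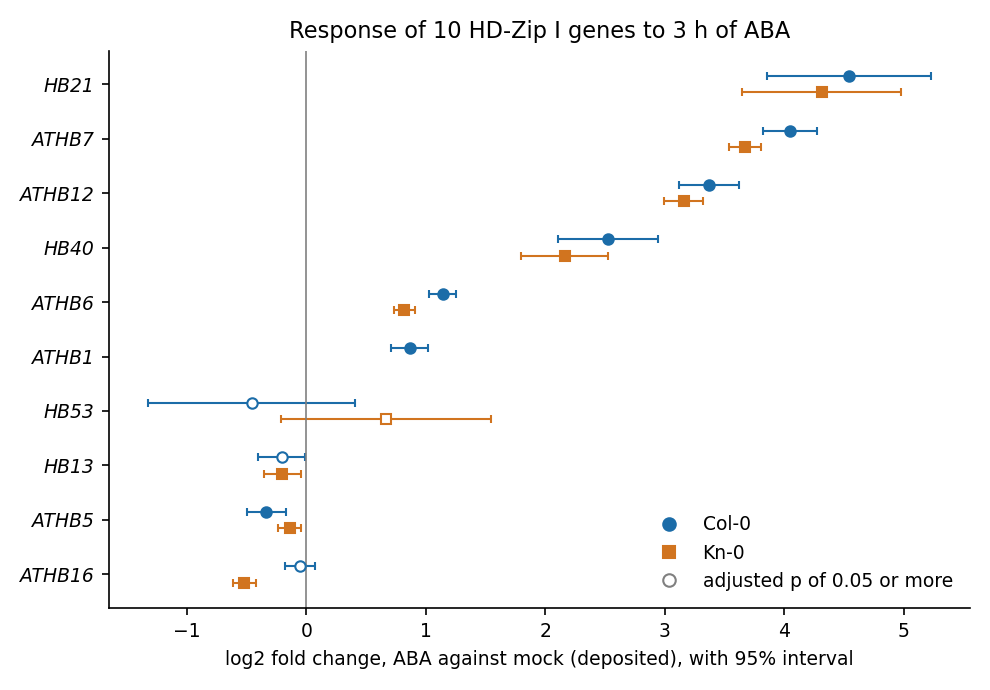
Log2 fold change of ABA against mock for each of the 10 genes, from the authors' deposited tables, with 95% intervals; circles are Col-0, squares Kn-0, and open symbols did not pass an adjusted p of 0.05. HB21, ATHB7, ATHB12 and HB40 lie above 2 in both accessions, ATHB16 lies near 0 for Col-0 and at -0.52 for Kn-0, and ATHB1 has no Kn-0 value.

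ATHB7 and ATHB12, a pair of ABA- and drought-induced genes whose products are reported to act on PP2C and receptor genes, rose most among the abundantly read members. In the authors' deposited tables the log2 fold change of ATHB7 was 4.05 ± 0.114 (SE) for Col-0 and 3.67 ± 0.0691 for Kn-0, which is 16.5-fold and 12.8-fold. Only 0.752% of genes tested for Col-0 and 0.666% for Kn-0 stood above it. ATHB7 has a single intron of 220 bases (chr2:19166194-19166413) and no splicing event was listed for it, so its libraries could not be seen one by one.

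ATHB12 could be followed in each library through its only intron, 186 bases at chr3:22914700-22914885. It had 81, 85 and 106 junction reads in the Col-0 mock libraries and 691, 783 and 1028 in Col-0 ABA. In Kn-0 it had 100, 81 and 101 under mock and 790, 964 and 795 under ABA. The ABA libraries lay far above the mock libraries in both accessions, with no overlap, and the 2 accessions overlapped within each treatment. For genes read at the same intron in all 12 libraries, reads were scaled per 1000000 of a library's reads at such matched events (RPM), 1 per gene. Those reads summed to between 11325636 and 12415174 per library. On that scale ATHB12 stood at 7.40 ± 1.01 (SD, n = 3) against 72.1 ± 13.4 in Col-0, and 7.79 ± 0.838 against 72.9 ± 8.86 in Kn-0.

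A limma fit over all 12 libraries gave ATHB12 a log2 change of 3.19 ± 0.129 (SE) in Col-0 (adjusted p = 1.55e-14) and 3.14 ± 0.129 in Kn-0 (adjusted p = 2.69e-14). In that fit 33.1% of 10998 genes were called for Col-0 and 32.0% for Kn-0. The authors' deposited tables list 3.37 ± 0.129 and 3.16 ± 0.0837 for the same gene. The response of ATHB12 differed between accessions by -0.05 with a 95% interval of -0.43 to 0.33 (limma, adjusted p = 0.970). Its level under mock differed by 0.07 (95% interval -0.20 to 0.34) and under ABA by 0.02 (-0.24 to 0.29). Differences within those intervals were not excluded. The genes whose junction reads ran most like those of ATHB12 over the 12 libraries were ABI1 (Pearson r = 0.9956), GolS2, a galactinol synthase gene (r = 0.9956), and AT2G41190 (r = 0.9946). These correlations mostly follow the 2 treatment clusters and are given as a description.

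HB21, HB40 and HB53 form a trio that acts downstream of BRANCHED1 (BRC1) in axillary buds, where the factors raise NCED3, the gene of a rate-limiting enzyme of ABA synthesis. They were read at low levels. HB21 rose by 4.54 ± 0.350 (SE) for Col-0 and 4.31 ± 0.338 for Kn-0 on the log2 scale in the authors' deposited tables, the largest changes of the 10 genes, from mean normalised counts of only 96.9 and 90.3. HB21 had 8, 4 and 4 junction reads in Col-0 mock and 50, 45 and 61 in Col-0 ABA. The 2 groups did not overlap, and limma gave a change of 2.27 ± 0.241 with 0.5 RPM added (adjusted p = 2.92e-06; 30.1% of 13798 genes called). The added 0.5 exceeds the mock level of 0.348 ± 0.149 RPM (SD, n = 3), so this value understates the change. RPM is here per 1000000 of the library's reads at the accession's own events, 1 per gene. That scale holds for every gene read at an accession's own event. No event of HB21 was listed for Kn-0.

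HB40 rose by 2.53 ± 0.213 (SE) and 2.16 ± 0.187 on the log2 scale in the authors' deposited tables for Col-0 and Kn-0. Its first intron had 9, 14 and 19 junction reads in Col-0 mock and 71, 69 and 90 in Col-0 ABA. In Kn-0 the reads were 16, 23 and 24 under mock and 84, 71 and 106 under ABA. Again no mock library reached an ABA library in either accession. Limma fits of each accession gave 2.05 ± 0.220 in Col-0 (adjusted p = 3.38e-06) and 1.76 ± 0.199 in Kn-0 (adjusted p = 1.64e-06; 37.7% of 13716 genes called).

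HB53, the third gene of the trio, had a mean normalised count of 21.8 for Col-0 and 19.1 for Kn-0 in the authors' deposited tables, the lowest of the 10. Its log2 fold change there was -0.46 ± 0.443 (SE) in Col-0 (DESeq2 adjusted p = 0.458) and 0.67 ± 0.450 in Kn-0 (DESeq2 adjusted p = 0.237). Neither passed, and the difference between accessions had a 95% interval of -0.11 to 2.36. Counted per kilobase of exon, the mean levels of HB21, HB40 and HB53 in Col-0 were 91.6, 173 and 23.2, against 7263 for ATHB6, 5647 for ATHB7, 5614 for ATHB1, 2629 for ATHB16, 2590 for ATHB5, 2086 for ATHB12 and 729 for HB13. Those means pool mock and ABA libraries, so the spread over libraries is unknown and neighbours in the order were not tested.

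Of the 4 genes listed as partners or targets of the trio, 3 could be tested. NCED3 rose by 2.57 ± 0.123 (SE) for Col-0 and 1.90 ± 0.0935 for Kn-0, in the authors' deposited tables. GA2OX6, a gibberellin-inactivating oxidase gene, rose by 2.26 ± 0.132 and 2.43 ± 0.0888 in the authors' deposited tables, while GA2OX2, of the same enzyme family, fell by 0.71 and 0.47. BRC1 had a mean near 1 in each of the authors' deposited tables and no adjusted p.

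ATHB6, an interaction partner of ABI1 and a negative regulator of ABA responses, rose in both accessions from a high level. Its first intron, 79 bases at chr2:9527464-9527542, had 1835, 1775 and 1817 junction reads in Col-0 mock and 3256, 3509 and 3718 in Col-0 ABA. The Kn-0 event, with an intron of 82 bases, had 1809, 1814 and 2217 reads under mock and 3211, 3132 and 3127 under ABA. Mock and ABA libraries were apart in both accessions, and the third Kn-0 mock library was the highest of the mock libraries. Limma gave 1.02 ± 0.0652 (SE) in Col-0 (adjusted p = 8.25e-09) and 0.74 ± 0.0664 in Kn-0 (adjusted p = 8.85e-08).

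The authors' deposited tables give ATHB6 a log2 fold change of 1.14 ± 0.0564 (SE) for Col-0 and 0.82 ± 0.0448 for Kn-0. Across the 9 genes tested in both accessions, the response of 2, ATHB6 and ATHB16, differed by a two-sided Wald test of the deposited fold changes, both lower in Kn-0. Over the genome 3.45% of 22001 genes differed, 1.5% lower in Kn-0. For ATHB6 the difference, Kn-0 minus Col-0, was -0.32 ± 0.0720 (SE; Wald test with Benjamini-Hochberg adjustment over all genes, adjusted p = 0.000635). In a weighted fit through the origin, Kn-0 changes had a slope of 0.867 on those of Col-0, over 11815 genes changed in either accession. Error in the Col-0 changes also lowers such a slope, and its part was not tested. After division of the Kn-0 changes by that slope, the ATHB6 difference was -0.20 and no longer passed (adjusted p = 0.191).

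The close relative of ATHB6, ATHB16, a blue-light-linked regulator of leaf growth, went the other way in Kn-0. Its first intron, 119 bases at chr4:18572601-18572719, had 857, 842 and 900 junction reads in Col-0 mock and 670, 711 and 824 in Col-0 ABA. In Kn-0 it had 950, 951 and 1072 under mock and 602, 658 and 624 under ABA. The raw counts of mock and ABA libraries did not overlap in either accession, but in RPM the Col-0 groups came close, with a highest ABA value of 69.8 beside a lowest mock value of 69.9. In Kn-0 the groups stood at 82.2 ± 5.21 and 53.8 ± 2.59 RPM (SD, n = 3).

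The limma fit gave ATHB16 a change of -0.16 ± 0.0742 (SE) in Col-0 (adjusted p = 0.117) and -0.60 ± 0.0742 in Kn-0 (adjusted p = 1.56e-06). The authors' deposited tables give -0.05 ± 0.0640 (DESeq2 adjusted p = 0.582) and -0.52 ± 0.0509 (adjusted p = 6.02e-23). The difference of response was -0.47 ± 0.0818 by the Wald test (adjusted p = 2.51e-06) and -0.54 after division by the slope (adjusted p = 1.17e-07). In junction reads the difference was of like size, -0.45 ± 0.105, but narrowly missed the threshold after adjustment over 10998 genes (limma, adjusted p = 0.0553), where 0.546% of genes were called. Leaving out 1 library brought it past the threshold in 2 cases, Col-0 ABA library 1 (adjusted p = 0.0411) and Col-0 mock library 3 (adjusted p = 0.0344), and the other 10 gave adjusted p values from 0.0643 to 0.159.

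ATHB16 also had more junction reads in Kn-0 than in Col-0 under mock, by 0.21 ± 0.0742 (limma, adjusted p = 0.0373), and fewer under ABA, by -0.24 ± 0.0742 (adjusted p = 0.0189). Of all genes, 28.4% differed between accessions under mock and 30.2% under ABA. Neither call was firm. The first was lost without any one of 4 mock libraries (Col-0 libraries 1 and 2, adjusted p = 0.0924 and 0.0973, and Kn-0 libraries 2 and 3, adjusted p = 0.0641 and 0.174) and with TMM scaling factors (0.102). The second was lost without Col-0 ABA library 3 (0.108), Kn-0 ABA library 1 (0.0755) or Kn-0 ABA library 3 (0.0545). The genes whose reads ran most like those of ATHB16 were AT2G31730 (r = 0.9285), AT1G54770 (r = 0.9148) and CYP704A2 (r = 0.9128), again over 12 libraries in 4 groups.

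**Figure D2:**
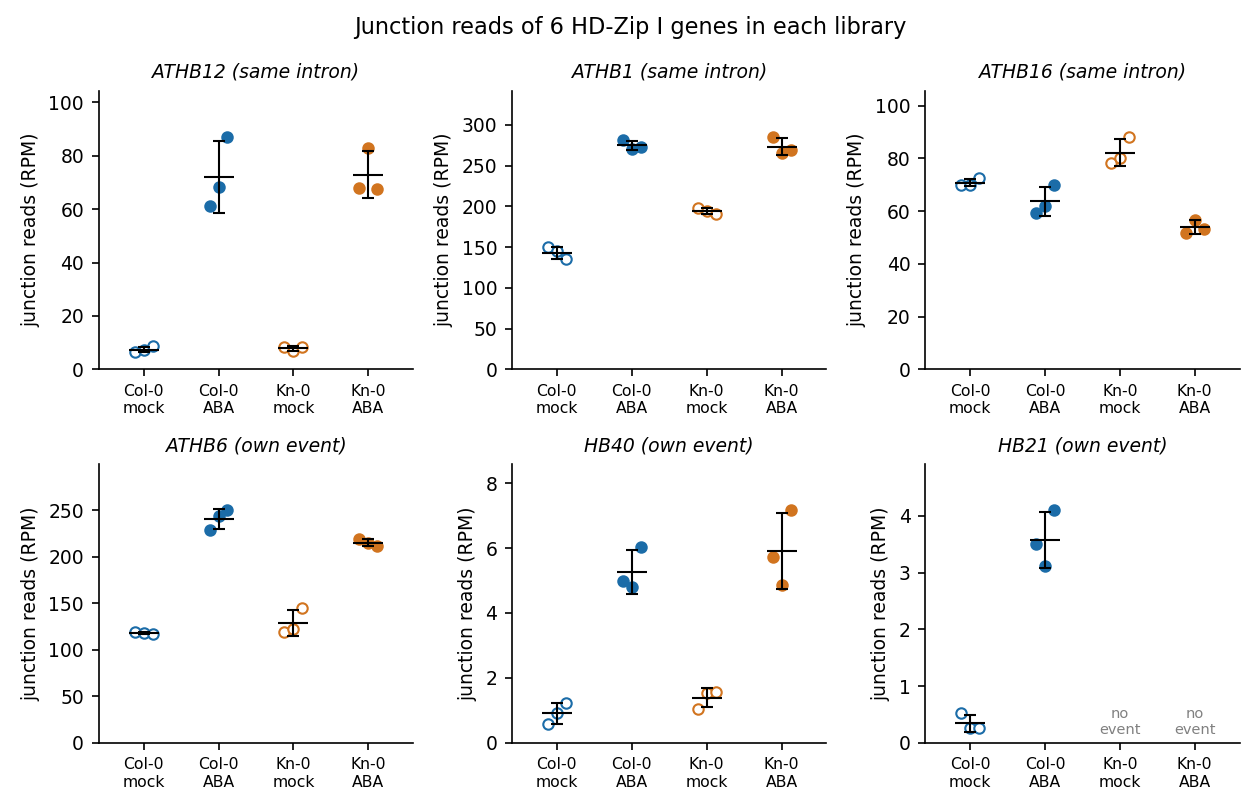
Junction reads in RPM in each library for 6 genes, with the mean and SD of each group of 3; open circles are mock and filled circles ABA, blue Col-0 and orange Kn-0, each panel on its own linear axis from 0. ATHB12, ATHB1 and ATHB16 are read at the same intron in both accessions, and ATHB6, HB40 and HB21 at each accession's own event, so those levels are not comparable between accessions. RPM is per 1000000 reads at matched events for the first 3 genes and per 1000000 of all junction reads for the others.

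ATHB1, an activator that promotes hypocotyl growth downstream of the light-signalling factor PIF1, had more junction reads in Kn-0 than in Col-0 under mock. Its second intron, 87 bases at chr3:183541-183627, was read in an intron-retention event, whose reads include those across the intron's edges. It had 1834, 1738 and 1675 junction reads in Col-0 mock and 3183, 3104 and 3219 in Col-0 ABA. In Kn-0 it had 2402, 2304 and 2315 under mock and 3321, 3078 and 3160 under ABA. Every Kn-0 mock library lay above every Col-0 mock library, whereas the ABA libraries of the 2 accessions overlapped.

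In RPM the ATHB1 groups stood at 143 ± 7.43 (Col-0 mock), 275 ± 5.44 (Col-0 ABA), 194 ± 3.89 (Kn-0 mock) and 273 ± 10.5 (Kn-0 ABA; SD, n = 3 each). Limma gave a rise of 0.94 ± 0.0565 (SE) in Col-0 (adjusted p = 1.62e-11) and 0.49 ± 0.0565 in Kn-0 (adjusted p = 6.22e-07). The rise was smaller in Kn-0 by -0.45 ± 0.0799 (limma, adjusted p = 0.00826). Under mock, Kn-0 exceeded Col-0 by 0.44 ± 0.0565 (adjusted p = 4.56e-06), and under ABA the difference was -0.01 with a 95% interval of -0.13 to 0.11 (adjusted p = 0.923).

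The first intron of ATHB1, 179 bases for Col-0 and 181 for Kn-0, was looked at after those values were seen. It had 1888, 1814 and 1619 reads in Col-0 mock, 2970, 2737 and 3180 in Col-0 ABA, 2598, 2419 and 2464 in Kn-0 mock and 3476, 3422 and 3210 in Kn-0 ABA. The mock libraries were again apart by accession, and here the Kn-0 ABA libraries also lay above those of Col-0. Its log2 ratios, without a test, were 0.82 for ABA in Col-0, 0.48 for ABA in Kn-0, and 0.51 for Kn-0 over Col-0 under mock. Under ABA the ratio of Kn-0 over Col-0 was 0.17, and the difference of response was -0.34, smaller in size than at the second intron. First-intron ratios use spliced reads only, scaled by the total at each accession's own events. The second intron is scaled by matched events and includes reads across its edges. The effect of these unlike scales on the ratios was not tested. The reads at both introns come from the same molecules and libraries and are not independent.

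For ATHB1 the authors' deposited table for Col-0 gives a log2 fold change of 0.87 ± 0.0791 (SE), while the authors' deposited table for Kn-0 lists it at a mean of 0 with no test. It was therefore untested at gene level in Kn-0, although its second intron had between 2304 and 3321 junction reads in each Kn-0 library. Of the 5432 genes at 0 in the authors' deposited table for Kn-0, 53 had a mean of at least 10 junction reads, and 55 of 6039 in that for Col-0. The reference places parts of 3 other genes on the span of ATHB1. A long noncoding RNA gene, AT3G01035, over 345 bases, had a mean of 26.8 for Col-0, and AT3G01475, over 612 bases, had 1.81. Neither of those is listed for Kn-0. AT3G01460, over 59 bases, had a mean of 3510 for Col-0 and is listed for Kn-0 too. The part of these overlaps in the 0 for Kn-0 was not tested. Whether counting used strand is not given in the sources used here, so reads of overlapping genes cannot be told apart. The genes most like ATHB1 over the 12 libraries were PDCB4, a plasmodesmata callose-binding protein gene (r = 0.9892), RBL4, a rhomboid-like protease gene (r = 0.9822), and PIF3, a phytochrome-interacting factor gene (r = 0.9814).

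ATHB5 and HB13 moved little. ATHB5, a positive regulator of ABA responses in young seedlings and repressor of the auxin gene IAA12, fell by 0.33 for Col-0 and by 0.14 for Kn-0 on the log2 scale in the authors' deposited tables (SE 0.0845 and 0.0488; DESeq2 adjusted p = 0.000383 and 0.0124). The 2 changes differed by 0.19 with a 95% interval of 0.00 to 0.39 (Wald test, adjusted p = 0.461). No event of ATHB5 was listed, so per-library values were not seen.

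HB13, a regulator of cotyledon shape and stem growth, had a log2 fold change of -0.21 ± 0.101 (SE) in Col-0 (DESeq2 adjusted p = 0.0969) and -0.20 ± 0.0791 in Kn-0 (adjusted p = 0.0260) in the authors' deposited tables. Those values are nearly equal on the 2 sides of the threshold, and their difference was 0.00 (95% interval -0.25 to 0.25). In Kn-0, HB13 had 340, 360 and 373 junction reads under mock and 303, 287 and 306 under ABA. The groups did not overlap, but the limma change of -0.21 ± 0.0852 did not pass (adjusted p = 0.0588), where 37.7% of 13716 genes were called. With TMM scaling factors the limma adjusted p was 0.154. Without single Kn-0 libraries it ran from 0.0530 to 0.154.

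The other 7 class I genes gave 1 lower call in Col-0, HB20 at -0.42 ± 0.0939 (SE) in the authors' deposited table. They gave 1 higher call in Kn-0, ATHB54 at 1.56 ± 0.555 in the authors' deposited table, on a mean of only 15.2. HB20 stood at -0.19 in Kn-0 and ATHB54 at 1.03 in Col-0, in the authors' deposited tables. Neither response differed detectably between accessions (Wald test, adjusted p = 0.636 and 0.991). In class II, which includes shade-avoidance genes, 3 of 10 rose and 1 fell in Col-0, and 4 rose and 1 fell in Kn-0. The shares over all tested genes, in either direction, were 38.3% for Col-0 and 44.4% for Kn-0. HB17 rose most, by 1.40 ± 0.176 and 1.79 ± 0.117 in the authors' deposited tables, followed by HAT22 at 0.86 ± 0.0989 and 0.81 ± 0.0699, while HAT1 was at -0.88 ± 0.0738 and -0.67 ± 0.0606.

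None of the 5 class III genes, which pattern leaf polarity and vasculature, rose. Of these REV fell in both accessions (-0.32 ± 0.0782 and -0.27 ± 0.0503 in the authors' deposited tables). PHB and PHV passed in Kn-0 alone, each at -0.18 there, beside -0.16 and -0.06 in Col-0, in the authors' deposited tables. Neither response differed detectably between accessions (Wald test, adjusted p = 0.996 and 0.898). In class IV, epidermal regulators, 1 rose and 3 fell of 13 tested for Col-0 and of 15 for Kn-0. Over all tested genes 19.8% rose and 18.4% fell for Col-0, and 22.9% rose and 21.5% fell for Kn-0. HDG7 was lowest, at -1.12 ± 0.198 and -0.82 ± 0.205 in the authors' deposited tables, and GL2, which represses root hair fate, stood at -0.52 ± 0.126 and -0.67 ± 0.117. PDF2, an epidermal identity gene, fell by 0.29 and 0.24 in the authors' deposited tables. The median changes of classes II, III and IV were 0.20, -0.07 and 0.05 for Col-0, with 0.31, -0.18 and -0.03 for Kn-0, beside 1.003 and 0.82 for the 10 genes. The 10 were chosen with such results known, so that contrast is a description.

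**Figure D3:**
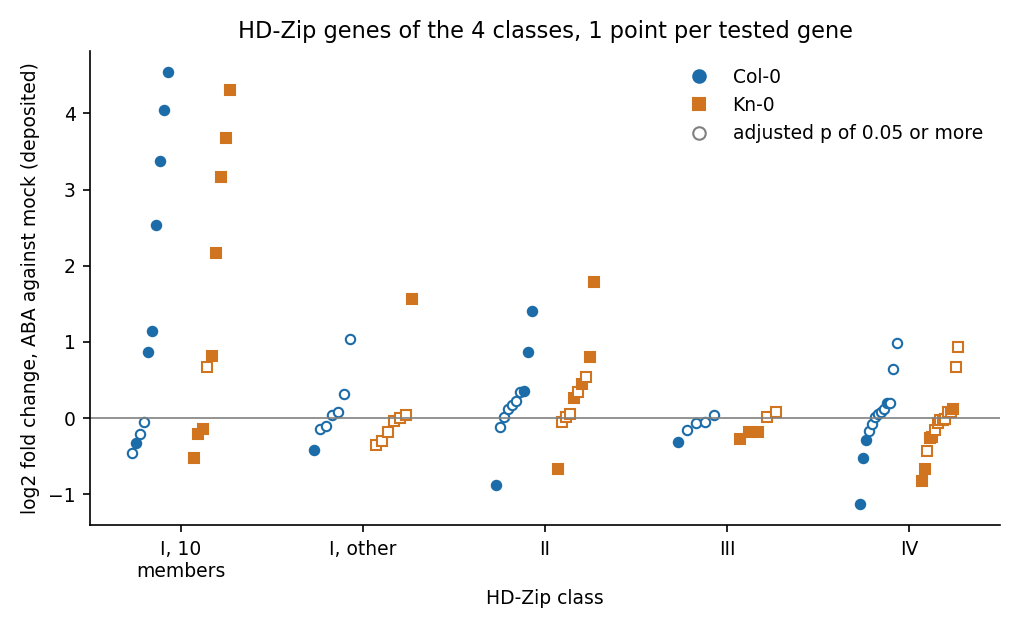
Log2 fold change of ABA against mock in the authors' deposited tables for every tested HD-Zip gene, by class; circles are Col-0, squares Kn-0, and open symbols did not pass an adjusted p of 0.05. The values above 2 are all in the group of 10.

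Genes that ATHB7 and ATHB12 are reported to act on moved in opposite directions by kind. Of 12 listed, 9 rose and 2 fell in each accession, against 38.3% (Col-0) and 44.4% (Kn-0) of all tested genes in either direction. All 9 that rose were PP2C genes, led by HAI3 (7.42 ± 0.218 and 6.40 ± 0.170, SE), HAI2 (6.43 ± 0.202 and 5.69 ± 0.179) and HAI1 (6.34 ± 0.130 and 6.04 ± 0.103) in the authors' deposited tables for Col-0 and Kn-0. Both that fell were ABA receptor genes, PYL5 and RCAR3 (PYL8). The twelfth, GA20OX1, a gibberellin synthesis gene, stood at 0.36 ± 0.234 and 0.13 ± 0.186 in the authors' deposited tables and did not pass.

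Among 11 listed partners and targets of ATHB5, ATHB6, ATHB1 and HB13, 1 rose and 3 fell in Col-0, and 2 rose and 1 fell in Kn-0. Those counts are no higher than the shares of all tested genes called in either direction, 38.3% in Col-0 and 44.4% in Kn-0. NAC042, a reported HB13 target, fell most in Col-0 (-4.19 ± 0.475, SE) and stood at 0.31 ± 1.21 in Kn-0, in the authors' deposited tables. IAA12, an auxin-signalling repressor gene, fell in both (-0.51 ± 0.0812 and -0.36 ± 0.0599, SE, in the authors' deposited tables), in the same direction as ATHB5, its reported repressor. EXP3, a cell-wall expansin gene, stood at -0.48 ± 0.0773 and -0.41 ± 0.181 in the authors' deposited tables and passed in Col-0 only, though the difference was not significant (Wald test, adjusted p = 0.995). BPM1, one of the adaptor genes through which ATHB6 is degraded, rose in both, by 0.24 ± 0.0690 and 0.22 ± 0.0544 in the authors' deposited tables. BPM4 rose by 0.18 ± 0.0686 in Kn-0 and stood at 0.12 in Col-0, without passing, in the authors' deposited tables. Its response did not differ detectably between accessions (Wald test, adjusted p = 0.992). Of the 6 BPM genes the other 4 did not pass in either accession.

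No splicing event of the 10 genes was called for ABA. rMATS events were listed for 6 genes in Col-0 (16 events) and 6 in Kn-0 (29 events), and for ATHB7, ATHB5 and HB53 in neither. The authors' deposited tables list an rMATS FDR of 1 for all 12 Col-0 events and all 24 Kn-0 events with a mean of at least 10 reads, and none of these had an unadjusted rMATS p under 0.05. Of all events with that depth, 0.162% and 0.114% were called. A limma fit of logit inclusion called 0 of the 7 events of ATHB1 and HB40 that it could test, where 0.192% of events for Col-0 and 0.298% for Kn-0 passed, and none of the 7 had an unadjusted p under 0.05. Retention of the second intron of ATHB1, the deepest of these, stayed between 1.6% and 2.8% of its length-normalised reads in the 12 libraries.

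In the listed events of HB40, acceptor use differed between the 2 accessions, a comparison added after the values were seen. It was chosen from the members' 16 Col-0 and 29 Kn-0 events, and its p-value is not adjusted for that choice. The share of all events that differ between accessions was not computed. Sites were matched by distance only, across 2 assemblies, and the effect of this was not tested. The acceptor of its first intron is shown because its alternative sites differed. The Col-0 reference on the minus strand at chr4:17315875-17315917 reads as follows, with the AG of the main and of the upstream acceptor in capitals.
HB40 acceptor: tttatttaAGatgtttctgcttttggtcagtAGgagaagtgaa
The upstream site lies 23 bases before the main one, and a further AG stands 3 bases before the main site.

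In Col-0 the site 23 bases upstream took 1, 2 and 4 reads beside 8, 12 and 15 at the main site under mock. Under ABA it took 5, 4 and 11 beside 66, 65 and 79. In Kn-0 it took no read in the mock libraries and 0, 1 and 1 under ABA, beside 14, 20 and 20 and then 61, 63 and 83 at the main site. Every Col-0 library used it more than every Kn-0 library.

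The share of that HB40 site was 11.9% ± 5.50 for Col-0 and 0.459% ± 0.721 for Kn-0 (SD over 6 libraries each), or 27 of 272 reads against 2 of 263. The difference of 11.5 percentage points had an exact two-sided permutation p of 0.005, with accession labels permuted within treatment, the smallest that the 400 arrangements can give. In Kn-0 mock, 0 of 54 reads allows a share of up to 5.56%, for counting error only. Instead, Kn-0 listed a site 3 bases upstream with 2, 3 and 4 reads under mock and 23, 8 and 23 under ABA. No event at that distance was listed for Col-0, although the Col-0 reference has an AG there. In the authors' Kn-0 coordinates, which lie on another assembly, the intron measured 353 bases against 348 in Col-0, and the Kn-0 sequence was not used here.

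Neither HB40 site shifted detectably with ABA. In Col-0 the upstream share was 15.5% ± 5.08 under mock and 8.35% ± 3.41 under ABA (SD, n = 3; exact two-sided permutation p = 0.2). In Kn-0 the share of the site 3 bases upstream was 14.1% ± 2.27 and 20.1% ± 8.17 (exact two-sided permutation p = 0.4). Single libraries moved both differences. The Col-0 difference of -7.13 percentage points was -4.35 without mock library 3. The Kn-0 difference of 6.05 points was 2.41 without ABA library 1 and 10.5 without ABA library 2. With 3 libraries against 3 such a test cannot go below 0.1.

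**Figure D4:**
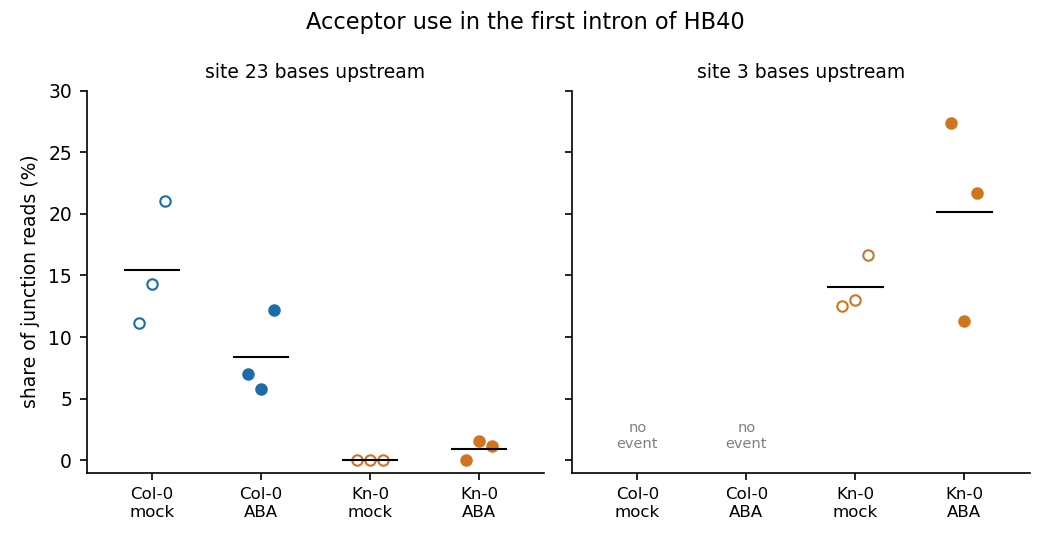
Share of junction reads at 2 alternative acceptors of the first HB40 intron, each against the main site, in percent, with 1 point per library and a line at the mean of 3. The site 23 bases upstream lies between 5.80% and 21.1% for Col-0 and at most at 1.56% for Kn-0.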

How the data were processed

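Polyadenylated RNA of whole seedlings gave 12 libraries, 3 per accession and treatment. STAR, featureCounts and DESeq2, with the build TAIR10, stand in the submitters' processing notes. The deposited gene tables contain, per the file headers, a mean signal from the authors (normalised counts averaged over an accession), log2 fold changes of ABA over mock with standard errors, the Wald statistic (a score) and p-values. The deposited splicing tables hold the authors' rMATS p-values, inclusion differences (a score) and junction reads of 3 libraries per cell. The labels give the comparison as control against ABA, and the log2 ratio of junction reads correlated with the deposited fold change across genes (r = 0.9559 and 0.9616, over 13743 and 13663 genes that are not independent replicates).

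Commas between junction counts were often lost. Counts of 33.3% (Col-0) and 34.84% (Kn-0) of events were recovered from the deposited inclusion levels, and those of 26.33% and 27.61% needed in addition the most even division among libraries. In all, 91 and 119 events failed and were left out. Values given for ATHB12 in Col-0, HB13 in Kn-0 and ATHB6 in Kn-0 include cells of the last kind. No column of any other sample was used (0 left unmapped).

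Differences of the deposited fold changes were tested by a two-sided Wald z, adjusted by Benjamini-Hochberg over 22001 genes. Junction reads of 1 event per gene, the deepest, were fitted as log2(RPM + 0.5) with limma 3.58.1 (R 4.3.3, trend) for genes with a mean of at least 10 reads. RPM is reads per 1000000 of a library's reads summed over 1 event per gene. That event was the deepest matched event or, in fits of 1 accession, the deepest event of the accession. Kn-0 events lie on another assembly, so events were matched between accessions by intron lengths and not by coordinates as planned. Reads mapped to 2 assemblies are compared there, and the effect of this on levels was not tested. The limma p-values measure the spread among the 3 libraries of a group, pooled over the groups of a fit and moderated over genes. Wald p-values rest on the deposited standard errors, and permutation p-values on rearranged libraries. Both tests were checked on simulated data. Genes named outside the 10 are, of each list, the 3 with the largest called changes, and for a gene read at the same intron in all libraries the 3 most correlated. A few further genes of the lists were named after their values were seen. Members and lists were chosen with earlier results of these data known, and the promoter pairs and HB40 acceptor comparison were added later.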

Additional observations from a re-analysis of the deposited data

Results flagged for a closer look

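These responses to ABA differed between Kn-0 and Col-0 by a test of the difference itself, and are given as values. By the Wald test of the authors' deposited fold changes, Kn-0 minus Col-0 on the log2 scale, ATHB6 differed by -0.32 and ATHB16 by -0.47. Outside the 10, 9 listed genes differed. Of the PP2C genes AHG1 differed by -1.20, HAI3 by -1.02, HAB1 by -0.44 and PP2CA by -0.39. RAB18 differed by -1.13, NCED3 by -0.67, and the bZIP factor genes ABI5 and ABF3 by -0.54 and -0.37, while NAC042 differed by 4.49. After division of the Kn-0 changes by the slope, 0 of these 9 passed: HAI3 was then at -0.04 (Wald test, adjusted p = 0.995), NCED3 at -0.38 (0.300), RAB18 at -0.58 (0.571), AHG1 at -0.58 (0.715) and NAC042 at 4.54 (0.0642), and the other 4 had adjusted p values from 0.835 to 0.971. ATHB6 lost its call as well, and ATHB16 kept it. Among the listed genes outside the 10 the division also gave new calls, all higher in Kn-0. They were LTI65 at 1.30 (Wald test, adjusted p = 7.11e-05), ABF2 at 0.41 (0.00803), HAI1 at 0.63 (0.0166) and GA2OX6 at 0.55 (0.0406). In junction reads at its second intron, the response of ATHB1 differed by -0.45 in the limma interaction. At its first intron, on another scale, it differed by -0.34, without a test.

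For NAC042 the Kn-0 libraries stood apart from each other: it had 19, 10 and 18 junction reads under mock and 46, 7 and 3 under ABA, so the first ABA library held most of the reads. The authors' deposited tables give it -4.19 ± 0.475 (SE) for Col-0 and 0.31 ± 1.21 for Kn-0, and the part of that library in the difference was not tested. Groups of 3 libraries were too small for a test of single outlying values.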

How the results depend on the processing

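No paired analysis was possible because the libraries within a splicing cell carry no replicate number and the gene tables hold no libraries, so the replicate block was not run. With a log2 fold change of at least 1, 4 members were called in Kn-0 in place of 8, and the limma fit of junction reads called 5 of the 6 with an event. Members whose response differed numbered 1 (ATHB16) after division by the slope and 1 (ATHB1) in the junction interaction, in place of 2. With skipping reads only, 3 members were called in each accession in place of 5, since ATHB12 and ATHB6 then had almost no reads. Under mock, TMM scaling left 1 member in place of 2 differing between accessions. Leaving out 1 library at a time gave 5 to 6 called members in Col-0, 5 in Kn-0, 1 to 2 for the difference of response, 1 to 2 for the accessions under mock and 0 to 1 under ABA. No result changed direction while past its threshold in any alternative run. Members' splicing events called stayed at 0 under each threshold, depth minimum and limma fit that was run. Low reads limited HB21, HB40 and HB53.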
